A study of Mus musculus with 2 samples.

Results

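The genes for 10 secreted matrix proteins were followed in 2 mouse cell lines of testicular origin: the small proteoglycans decorin (Dcn), biglycan (Bgn) and lumican (Lum), the large proteoglycan versican (Vcan), and the matricellular proteins thrombospondin 1 and 2 (Thbs1, Thbs2), tenascin C (Tnc), periostin (Postn), osteopontin (Spp1) and Sparc. They were chosen by name out of 14450 genes with a tag in either library. The difference between the same 2 libraries was already known when they were chosen, so their values are a description and carry no test. The starting cells of GC-1spg were type B spermatogonia, taken at a donor age of 10 days and immortalized with pSV3-neo. For GC-2spd (ts) they were spermatocytes, the donor age was 6 weeks, and the agent is given as the SV40 large T antigen. Whether pSV3-neo carries the same antigen is not stated. Both lines grew in DMEM with serum and received no treatment. The published cell culture description places GC-2spd (ts) before meiosis, with no capacity left to mature further. It places GC-1spg between its cell of origin and the primary spermatocyte. Each line is an immortalized culture that gave 1 library, so no difference has a replicate check. Age of donor, cell type and any difference in transformation cannot be told apart.

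Small leucine-rich proteoglycans carry glycosaminoglycan chains on a short core protein, bind collagen fibrils and hold growth factors such as TGF-beta near the cell. Versican belongs to another family, the lecticans, which are large and bind hyaluronan. Matricellular proteins are secreted into the matrix but mainly modulate how cells attach and signal, through integrins, CD44, CD47 and other receptors, and many are made in development and tissue repair. In the testis such matrix lies mostly in the wall of the seminiferous tubule and between the tubules, and is produced largely by somatic cells.

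A DGE library holds 1 short tag per captured transcript end: the CATG where the enzyme NlaIII cut, followed by 17 bases. The copies of a tag were counted, and TPM here means copies per 1000000 clean tags of the library. GC-1spg had 5072149 clean tags and GC-2spd (ts) had 4726808, so that 1 copy was worth 0.197 and 0.212 TPM, respectively. Tags with 1 copy had been removed, and the smallest listed copy number was 2. A gene's count is the sum of its sense tags that match no other gene. Tags are not counted along the length of a transcript, so levels of different genes are compared as tags with no division by length. All intervals are exact, at 95%. They hold counting error alone, because each line gave 1 library. Amplified copies of the same molecule look alike, so even that error may be understated.

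The tag that led each detected gene is printed below 5′ to 3′ because these are the sequences on which the counts rest. Capitals mark the NlaIII site.
Dcn: CATGacttattatgcaagctg
Bgn: CATGtctgacttccagctctc
Vcan: CATGgaattttgaaaaagcga
Thbs1: CATGgatttttccaaatctct
Thbs2: CATGagggtgtgaagaacatt
Tnc: CATGgtcattctccgagccag
Postn: CATGcaatgtgggtttcctgc
Spp1: CATGcaaacaccgttgtaacc
Sparc: CATGcaaactctcacagcaat
All of them lie in the 3′ UTR of their gene. On GRCm38 (GENCODE M21) they were at chr10:97517794-97517814 for Dcn, chrX:73495143-73495163 for Bgn, chr13:89657048-89657068 for Vcan, chr2:118125983-118126003 for Thbs1 and chr17:14665788-14665808 for Thbs2. Those of the remaining genes were at chr4:63960096-63960116 for Tnc, chr3:54390775-54390795 for Postn, chr5:104440784-104440804 for Spp1 and chr11:55394552-55394572 for Sparc. Dcn, Bgn, Thbs1, Postn and Spp1 are on the plus strand, and Vcan, Thbs2, Tnc and Sparc on the minus strand. The tags were unequal in abundance: the Sparc tag had 19738 copies in GC-1spg against 9687 in GC-2spd (ts), whereas the Vcan tag had 19 and 15.

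Of the 10 genes, 9 had a tag, 8 of them in GC-1spg against 9 in GC-2spd (ts). At an absolute log2 ratio of at least 1 between the libraries, 4 genes (Bgn, Thbs1, Thbs2 and Postn) were higher in GC-2spd (ts), 1 (Dcn) was lower and 4 (Vcan, Tnc, Spp1 and Sparc) lay within the threshold. Across all genes tested, 45.7% passed the same fold, 24.2% in the higher and 21.5% in the lower direction. With an FDR of at most 0.001 required as well, the shares of all genes were 11.7% and 7.84%, and the same 5 of these genes passed. Because the genes were selected with these ratios known, nothing is read from the comparison with those shares. A lower value can stand for fewer cells that express the gene or for less RNA per cell, and bulk libraries cannot tell these apart.

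**Figure D1:**
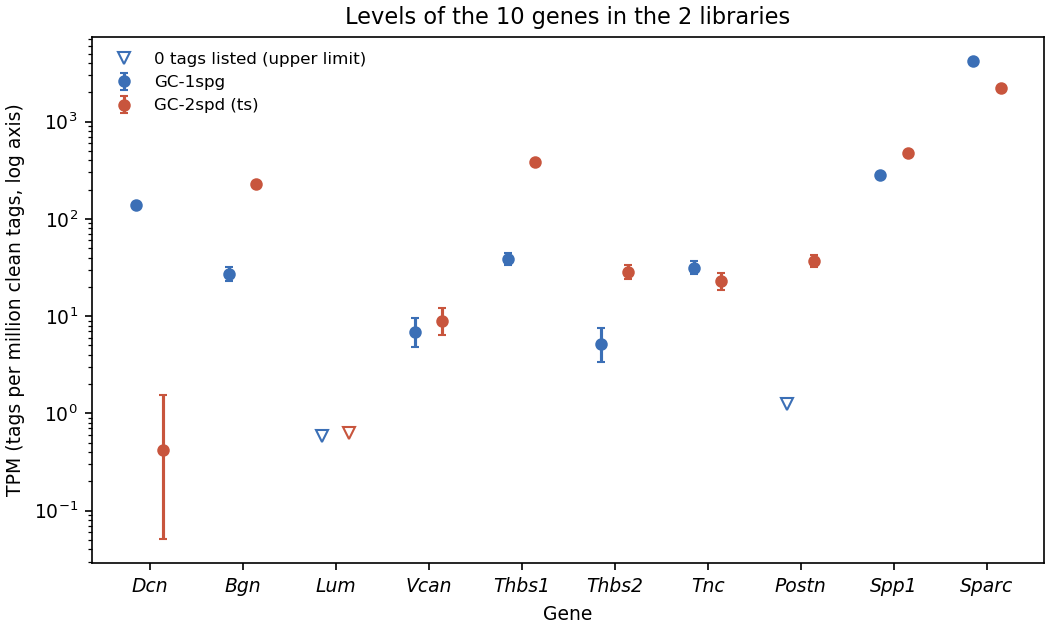
Level of each gene in TPM on a log axis, in GC-1spg (blue) and GC-2spd (ts) (red), 1 library each, with exact 95% intervals from counting error; open triangles are upper limits where no tag was listed. Sparc stands highest in both libraries (4172 and 2216 TPM), and Dcn, Bgn, Thbs1, Thbs2 and Postn show the widest gaps between them.

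Decorin, the proteoglycan that decorates collagen fibrils, had 710 tags in GC-1spg against 2 in GC-2spd (ts), or 140 and 0.423 TPM. The level was 331-fold lower in GC-2spd (ts), with an interval of 91.2 to 2737 (log2 ratio -8.37). In GC-1spg Dcn ranked 766 of 13066 listed genes, and in GC-2spd (ts) 11767 of 12757. The GC-1spg count rested on more than 1 site: the 3′ UTR tag gave 597 copies, and 2 tags in the coding sequence gave 97 and 10. These coding tags are shown because they repeat the difference at other places in the transcript.
Dcn second tag: CATGagaatgagatcaccaag
Dcn, exon 2 tag: CATGctagaagatgaggcttc
None of these 3 tags was listed in GC-2spd (ts). The 2 copies there came from a tag that matches a noncoding Dcn transcript at chr10:97511802-97511822 with the substitution T14A, reference base first, counted from 1 at the C of CATG. It is printed because the GC-2spd (ts) value depends on it.
Dcn, GC-2spd (ts): CATGgttttcaagatttgtca
Without mismatched tags, Dcn had 704 copies in GC-1spg against 0 in GC-2spd (ts), which is at least 84.6-fold lower. Dcn also had 5 sense tags that each match between 43 and 57 genes, with 26 copies in GC-1spg and 48 for the other line, and these were left out because they cannot be assigned. If all of them were Dcn, the level would be 13.7-fold lower in GC-2spd (ts) (10.3 to 18.7). Both the bound and this value were computed after seeing the data. The bound allows 7.75 unlisted counts in GC-2spd (ts), the upper Poisson limit if each of the 3 tags had 1 copy that the filter removed.

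Biglycan, the close relative of decorin encoded on the X chromosome, differed in the opposite direction. It had 138 tags in GC-1spg against 1080 in GC-2spd (ts), or 27.2 and 228 TPM, 8.40-fold higher in the latter (7.03 to 10.1). The TPM intervals of the libraries did not overlap, but neither did those of Dcn, Thbs1, Thbs2, Postn, Spp1 and Sparc. The share of all genes for which this holds was not counted, so nothing is read from it. By the counts, GC-1spg held 5.14 Dcn tags per Bgn tag, while GC-2spd (ts) held 540 Bgn tags per Dcn tag. The latter value rests on the 2 mismatched Dcn copies and would be 21.6 with the shared Dcn tags counted. The Bgn counts again came from several sites, 8 in GC-1spg against 11 in GC-2spd (ts). The leading tag had 103 and 763 copies, and a tag across a splice junction of the coding sequence, printed as a site far from the 3′ end, had 14 and 139.
Bgn, coding sequence: CATGaactgcattgagatggg

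Lumican, a keratan sulfate proteoglycan best known from the cornea, was not listed in either library. Its transcript offers 14 tags that occur in no other gene, so it was open to detection. A count of 0 allows up to 3 counts if single copies lost to the filter are left aside, or 0.591 TPM in GC-1spg against 0.635 TPM in GC-2spd (ts). Lum lies 46985 bases downstream of Dcn on chromosome 10, in a cluster with 2 further small proteoglycan genes, Kera and Epyc. Kera (keratocan) and Epyc (epiphycan) also had 0 tags in both libraries, so Dcn was the member of this cluster that was detected.

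Versican, the hyaluronan-binding proteoglycan of loose matrix, was low in both lines, with 35 tags in GC-1spg against 42 in GC-2spd (ts) (6.90 and 8.89 TPM). The log2 ratio of 0.36 had an interval of -0.32 to 1.05, which holds both no difference and a ratio past the threshold. Its tags were spread over the long 3′ UTR. The leading tag held 54.3% of the copies in GC-1spg (36.6 to 71.2) and 35.7% in GC-2spd (ts) (21.6 to 52.0), and the tag nearest the 3′ end, shown for comparison, held 8 and 15 copies.
Vcan, nearest the 3′ end: CATGtatagtgtaaaatgtga
Hapln1, whose product links versican to hyaluronan and whose gene lies 43660 bases away, had no tag in either library.

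Thrombospondin 1, a trimeric glycoprotein that can activate latent TGF-beta and inhibits angiogenesis, had 195 tags in GC-1spg against 1831 in GC-2spd (ts). The levels were 38.4 and 387 TPM, 10.1-fold higher in GC-2spd (ts) (8.69 to 11.7), and the rank moved from 3067 to 190. Thrombospondin 2, its close relative that does not activate TGF-beta, had 26 and 135 tags (5.13 and 28.6 TPM) and was 5.57-fold higher (3.64 to 8.84). Neither gene's intervals overlapped between the libraries, and as for Bgn nothing is read from that. Thbs1 exceeded Thbs2 in both lines, by 7.50 tags per Thbs2 tag in GC-1spg against 13.6 in GC-2spd (ts).

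The share of the leading tag was lower in GC-2spd (ts) for Thbs1, with intervals that did not overlap, and for Thbs2 a difference was not detectable at this depth. Thbs1 was listed at 8 sites in GC-1spg against 19 in GC-2spd (ts) and Thbs2 at 3 and 8, with no adjustment for the larger number of tags in the latter. The leading tag of Thbs1 held 86.7% of the copies in GC-1spg (81.1 to 91.1) and 72.9% in GC-2spd (ts) (70.8 to 74.9). For Thbs2 the shares were 73.1% (52.2 to 88.4) and 48.1% (39.5 to 56.9), and these intervals overlap. When the GC-2spd (ts) copies were reduced to the GC-1spg total of the gene and single copies were dropped, a step added once the data had been seen, the expected shares were 74.6% for Thbs1 and 52.6% for Thbs2. The first 2 tags below are printed because neither was listed in GC-1spg, while they had 87 and 51 copies in GC-2spd (ts). One lies in the 3′ UTR next to the leading tag (chr2:118125799-118125819) and the other near the start of the coding sequence (chr2:118112642-118112662).
Thbs1, 3′ UTR: CATGcatatgtataaggacag
Thbs1, coding sequence: CATGgagctcctgcggggact
Thbs1, 3′ UTR with C19G: CATGcatatgtataaggagag
The last of these is printed because it matches the same site as the first, with 1 mismatch (C19G, reference base first, counted as for Dcn). It had 6 copies in GC-1spg and none in the other library, and it is counted among the 8 GC-1spg sites above. In all, 2 of those 8 sites rest on a mismatched tag alone. Whether the C19G tag came from that site was not tested. Counted only at the site nearest the 3′ end, the log2 ratios were 3.10 for Thbs1 and 1.99 for Thbs2, against 3.33 and 2.48 over all sites.

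**Figure D2:**
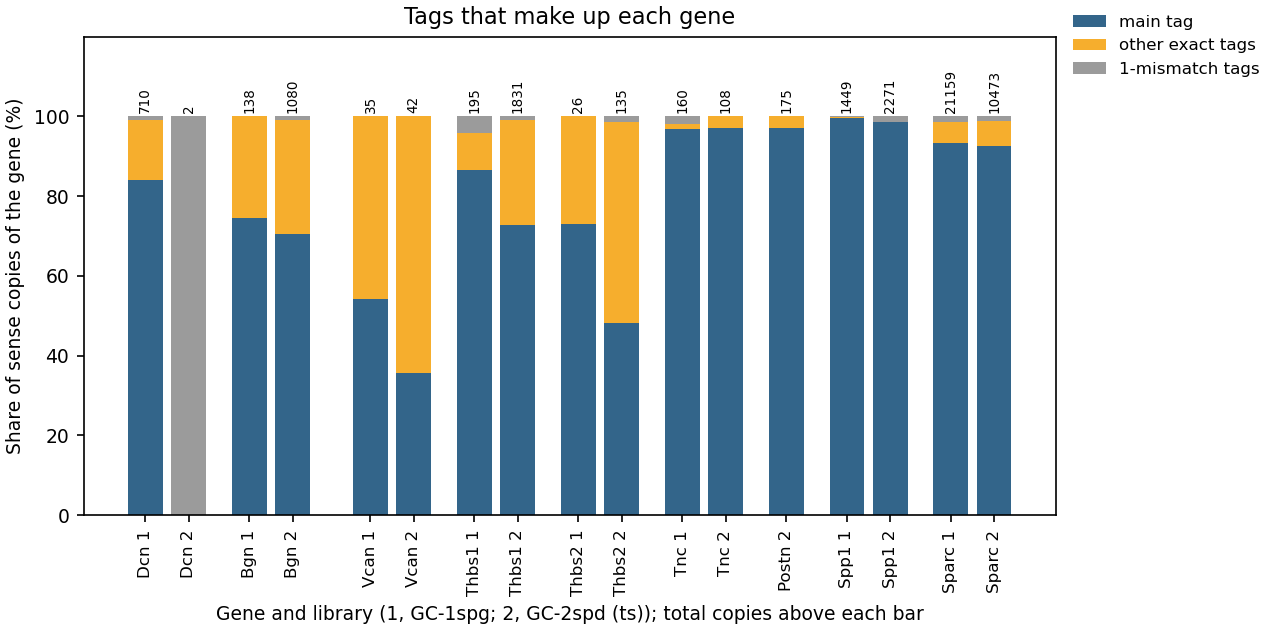
Share of each gene's sense copies in percent that came from its leading tag, from other exactly matching tags and from tags with 1 mismatch, with the copies of the gene above each bar. Spp1, Postn and Tnc rest almost wholly on 1 tag, Thbs2 in GC-2spd (ts) is spread over several (48.1% in the leading tag), and both Dcn copies of GC-2spd (ts) carry a mismatch.

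Tenascin C, a large glycoprotein of developing and healing tissue that weakens cell attachment, had 160 tags in GC-1spg against 108 in GC-2spd (ts) (31.5 and 22.8 TPM). The log2 ratio was -0.47 (-0.83 to -0.10), lower in GC-2spd (ts) but within the threshold. The TPM intervals of the libraries overlapped (26.8 to 36.8 and 18.7 to 27.6). The leading tag held 96.9% and 97.2% of its copies, so both libraries read the same end of the transcript.

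Periostin, a matrix protein of collagen-rich connective tissue, was listed in GC-2spd (ts) only, with 175 tags (37.0 TPM). With 6.30 counts as the limit in GC-1spg, or 1.24 TPM, the GC-2spd (ts) level was higher by at least 29.8-fold. The leading tag gave 170 copies, and a second tag of the 3′ UTR (chr3:54390527-54390547), printed as the only other evidence for the gene, gave 5.
Postn second tag: CATGcagggattttatctcaa

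Osteopontin, a phosphoprotein that binds integrins and CD44, was abundant in both lines, with 1449 tags in GC-1spg against 2271 in GC-2spd (ts) (286 and 480 TPM). GC-2spd (ts) exceeded GC-1spg 1.68-fold, with a log2 ratio of 0.75 (0.65 to 0.85), and Spp1 ranked 260 and 125. The leading tag held 99.7% and 98.7% of its copies. Spp1 sits in a cluster of genes for related proteins of bone and teeth. Of these, Mepe, Ibsp, Dmp1 and Dspp were listed in neither library, while Pkd2, the unrelated gene 18400 bases from Spp1, had 92 and 201 tags.

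Sparc (osteonectin), a collagen- and calcium-binding protein that regulates matrix assembly, was by far the most abundant of the 10. It had 21159 tags in GC-1spg against 10473 in GC-2spd (ts), 4172 and 2216 TPM, and ranked 3 and 8 among all listed genes. The level was 1.88-fold lower in GC-2spd (ts) (1.84 to 1.93), and the log2 ratio was -0.91 (-0.95 to -0.88). The leading tag held 93.3% and 92.5%. A second tag in the coding sequence (chr11:55395881-55395901), shown as a site away from the 3′ end, had 863 and 527 copies. In proportion this gap is smaller than that of the leading tag (19738 and 9687 copies).
Sparc second tag: CATGgaacattgcaccacacg
Sparc also had 17 sense tags that occur in other genes too, with 46237 copies in GC-1spg against 30297 in GC-2spd (ts). Those copies cannot be assigned and were left out. They outnumber the counted copies in both libraries. A Sparc ratio that includes them was not computed, so the values above hold for the unambiguous tags alone.

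Sparc set the sum over the genes. All 10 together had 23872 tags in GC-1spg against 16117 in GC-2spd (ts), of which Sparc made up 88.6% and 65.0%. Without Sparc the sum ran in the opposite direction, 2713 against 5644 tags, or 535 against 1194 TPM.

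Scaling to the total of clean tags left the genes listed in both libraries with a median log2 ratio of 0.16 rather than 0. With TMM factors that median was -0.010, and the share of called genes that were higher in GC-2spd (ts) fell from 59.8% to 47.2%. The ratios on the TMM scale were 2.90 for Bgn, 3.16 for Thbs1, 2.30 for Thbs2, 0.58 for Spp1, 0.19 for Vcan, -0.64 for Tnc and -1.09 for Sparc. No gene of the 10 changed sign, but Sparc moved past the threshold, also with DESeq2 size factors (-1.08). The shared Sparc copies are in none of these ratios, and whether Sparc would cross the threshold with them was not tested.

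**Figure D3:**
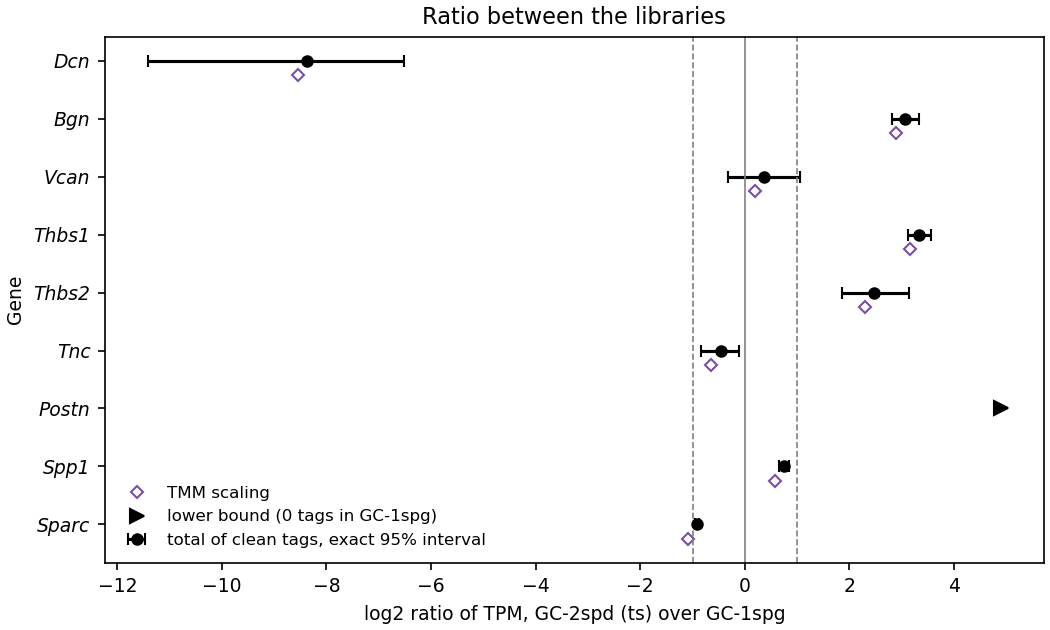
log2 ratio of GC-2spd (ts) to GC-1spg for each gene, scaled to all clean tags and with TMM factors; bars are exact 95% intervals from counting error and the Postn arrow a lower bound. Dcn lies far to the lower side (-8.37), and Sparc is the gene that crosses the threshold of 1 when the scaling changes (-0.91 to -1.09).

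**Figure D4:**
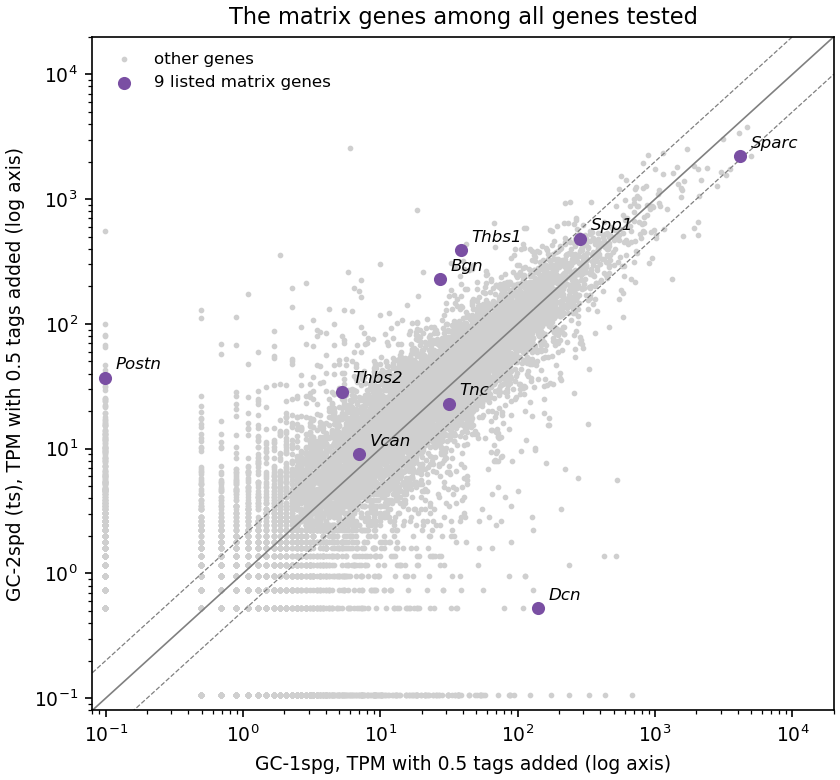
Level of every gene with a tag in GC-1spg (x axis) and GC-2spd (ts) (y axis), in TPM with 0.5 tags added, on log axes; the solid line marks equal levels, dashed lines a log2 ratio of 1 either way, and 9 matrix genes are named. Dcn lies far below the line (140 and 0.423 TPM), Bgn, Thbs1, Thbs2 and Postn above the upper dashed line, and Sparc among the highest genes of both libraries.

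Other genes of the same biology were counted with the test across all genes. That test, the two-sided Audic-Claverie test with Benjamini-Hochberg adjustment, compares these 2 libraries and not the conditions. Over all 14450 genes it called 2817 (19.5%), and the median log2 ratio with 0.5 tags added to both counts was 0.13. The lists leave out the 10 genes above.

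Among 24 further small proteoglycans, lecticans and their partners, 12 had a tag. Of these, 3 were called higher and 1 lower in GC-2spd (ts), and the median log2 ratio was 2.67. Of the 12, 7 had at most 4 tags in all, so that this median rests largely on the 0.5 tags added. For the 5 genes with a ratio or a bound it was 1.25, with genes at 0 set at their bound. That form of the median was added after seeing the data. Prg4 (lubricin), the lubricant of joints, had 189 tags in GC-1spg against 0 in GC-2spd (ts), where it was lower by at least 16.8-fold. With tags that also match an antisense site given to the sense gene, Prg4 had 208 and 5 tags (-5.28). Podnl1 and Ogn (osteoglycin), both of the leucine-rich family, had 0 tags in GC-1spg and 57 and 30 in GC-2spd (ts), so they were higher by at least 6.68-fold and 4.15-fold. Tsku, a secreted leucine-rich protein, had 93 and 81 tags and was not called. A further call, Hapln4, had 0 and 14 tags and is named after its values were seen. Its call was lost when only the site nearest the 3′ end was counted.

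Of 30 further matricellular and matrix adaptor genes, 18 had a tag, 3 were called higher and 5 lower, and the median was -1.05 (-0.18 for the 13 genes with a ratio or a bound). The fibulins, which link elastic fibres and basement membranes, split: Fbln2 had 347 tags in GC-1spg against 1968 in GC-2spd (ts) (log2 ratio 2.61), and Fbln5 had 47 and 208 (2.25). In contrast, Efemp1 (fibulin 3) had 577 and 4 tags (-7.07) and Fbln1 had 450 and 16 (-4.71). Thbs3, a thrombospondin of the pentameric kind, fell from 76 to 23 tags (-1.62), opposite in direction to Thbs1 and Thbs2. Mgp, the matrix Gla protein that inhibits calcification, had 61 and 0 tags, at least 9.03-fold lower. Emilin1 had 58 and 18 tags (-1.59) and Matn2 had 10 and 54 (2.53). Fstl1, a secreted relative of Sparc, was abundant with 877 and 1509 tags but was not called (0.88). At the site nearest the 3′ end alone it had 243 and 679 tags and was called (1.58).

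Of 26 receptors and binding partners, 20 had a tag, 5 were called higher and 6 lower, with a median of 0.38. Cd44, a receptor of hyaluronan and osteopontin, rose from 165 to 1464 tags (3.25), and Lrp1, the endocytic receptor of thrombospondins, from 321 to 1074 (1.84). Calr, which with Lrp1 binds thrombospondin at the cell surface, had 2845 and 7244 tags (1.45), and Lrp8 had 33 and 227 (2.88). Cd47, a thrombospondin 1 receptor, was called lower with 1236 and 509 tags (-1.18), as was the heparan sulfate proteoglycan Sdc4 with 802 and 293 (-1.35). The integrin subunits Itgb1 (929 and 2194 tags) and Itga3 (387 and 92) were called in opposite directions. Itgb3 (52 and 0 tags), named after its values were seen, was also called lower. Cd36, another thrombospondin 1 receptor, was listed in neither library.

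The 30 enzymes that build glycosaminoglycan chains included 26 with a tag, 5 called higher and 2 lower, with a median of 0.31. Fam20b, the kinase that phosphorylates the xylose of the chain linkage, had 11 tags in GC-1spg against 224 in GC-2spd (ts) (4.45). With exact matches only, Fam20b had 4 and 224 tags (5.91), and at the site nearest the 3′ end 2 and 177 (6.57). Chst11, a chondroitin sulfotransferase, had 93 and 433 (2.32), the chondroitin synthase Chsy1 had 75 and 169 (1.27), and Dse, the epimerase that makes dermatan sulfate, had 111 and 239 (1.21). Chst15 had 12 and 41 tags (1.87). In the other direction, the keratan sulfate sulfotransferase Chst1 had 121 and 6 tags (-4.23) and the hyaluronan synthase Has1 had 26 and 0, at least 5.11-fold lower. The most abundant enzymes, B3gat3 (477 and 313 tags) and Chst12 (375 and 215), were not called.

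Of 20 proteases, protease enhancers and hyaluronan-degrading genes, 14 had a tag, 3 were called higher and 4 lower, with a median of -0.20. The versican-cleaving proteases Adamts1 (620 and 231 tags, -1.32), Adamts5 (636 and 174, -1.77) and Adamts9 (139 and 58, -1.16) were called lower. Of the same family, Adamts4 (10 and 16 tags) and Adamts20 (7 and 0), named after their values were seen, were not called. The procollagen C-proteinase enhancers Pcolce (383 and 904 tags, 1.34) and Pcolce2 (45 and 239, 2.51) were both called higher. Hyal2 had 40 and 94 tags (1.33) and Cemip2 62 and 23 (-1.33). Htra1, a secreted serine protease that cleaves decorin and biglycan, had 1210 and 797 tags and was not called (-0.50). With only the site nearest the 3′ end counted, the calls of Pcolce2 (7 and 11 tags, 0.75), Cemip2 (7 and 5, -0.38) and Chst15 (6 and 22, 1.98) were lost, and Adamts5 had no tag to test. Besides Fstl1, calls were gained by Cemip (2 and 23 tags, 3.63) and Egfr (55 and 21, -1.29), both named after their values were seen. Matn2 had 5 and 46 tags there and stayed called (3.30).

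**Figure D5:**
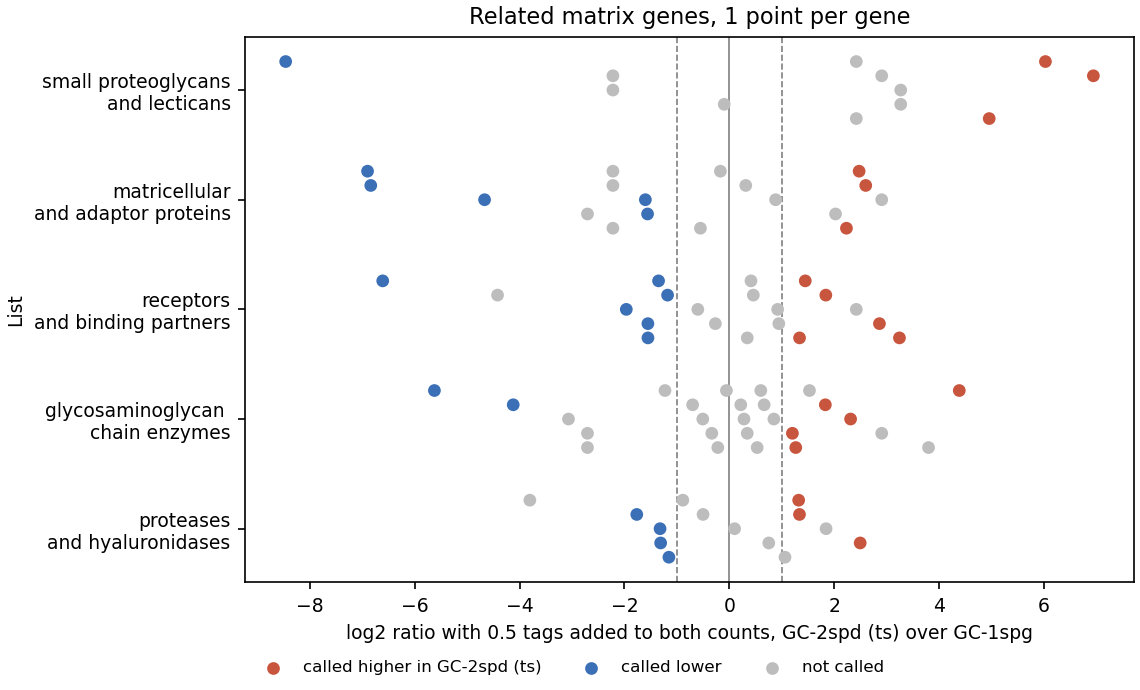
log2 ratio of each gene with a tag in 5 lists of related genes, with 0.5 tags added to both counts; red and blue points were called higher and lower in GC-2spd (ts), and dashed lines mark a ratio of 1 in either direction. Called genes lie on both sides in every list, from 3 higher and 1 lower among small proteoglycans to 5 higher and 6 lower among receptors.

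All 37 called genes of these lists were still called with TMM factors, and 1 gene of the lists, Hyal1, which is named after its value was seen, changed sign between scalings.

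Both lines are described as derived from germ cells, and the defining markers of germ cells were mostly absent. Of 18 germ cell markers, 16, among them Ddx4, Dazl, Stra8, Sycp3 and Dmc1, had 0 tags in both libraries. Uchl1 had 329 and 66 tags and Spo11 2 and 0, which summed to 65.3 TPM in GC-1spg against 14.0 in GC-2spd (ts). Of 12 fibroblast markers 9 were listed, and they summed to 3035 and 1227 TPM, while Thy1, Dpt and Fap had none. Most of that sum was Col1a1 (10465 and 2425 tags). Fn1 had 2351 and 1211 tags, Col6a1 965 and 345, and Col1a2 605 and 907, and over the list 3 genes were called higher and 3 lower. Of 11 Sertoli cell markers 7 were listed, among them Clu (902 and 262 tags) and Wt1 (620 and 0), both called lower, Gata4 (29 and 138), called higher, and Sox9 (29 and 46), not called, with sums of 315 and 98.2 TPM and with Rhox5, Cldn11, Fshr and Gata1 at 0. All 7 peritubular myoid markers were listed in GC-2spd (ts) and 4 of them in GC-1spg, where Myh11, Tagln and Actg2 had no tag. The sums were 16.4 and 212 TPM. Most of both sums was Acta2 (50 and 555 tags) and Myl9 (17 and 419), the 2 genes that were called. Cnn1 (5 and 15 tags) was not called. Of 7 Leydig cell markers 3 were listed and summed to 0.789 and 40.8 TPM, mostly from Nr5a1 (0 and 188 tags), with Cyp17a1, Hsd3b1, Insl3 and Lhcgr at 0. The osteoblast list had 3 of 6 genes listed, with sums of 24.1 and 45.9 TPM, and it shares Ibsp and Dmp1, both at 0, with the matricellular list. The higher sum came from Runx2 (99 and 213 tags), while Alpl (20 and 4) and Sp7 (3 and 0) were lower. Macrophage markers had 1 of 7 genes listed (0.789 and 0.635 TPM in sum, with Ptprc, Adgre1 and Csf1r at 0) and endothelial markers 1 of 6 (0.394 and 0.846 TPM, with Pecam1 and Cdh5 at 0). The germ cell, fibroblast and Sertoli sums were lower in GC-2spd (ts), although single fibroblast and Sertoli markers ran in either direction. The myoid, Leydig and osteoblast sums were higher. Within the myoid and Leydig lists, Des (11 and 4 tags) and Cyp11a1 (2 and 0) were lower, and neither was called. The part of any of these cell types in the differences of the matrix genes was not tested.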

How the data were processed

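Total RNA of 1 GC-1spg and 1 GC-2spd (ts) culture was sequenced as DGE tags. The authors removed adaptor, low quality and single copy tags and deposited a raw count and a TPM value per tag. The deposited TPM was the count divided by all clean tags of the library. TPM here was recomputed per gene from the counts. Their matching program was not given in the sources used.

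Tags of 21 bases were matched to GENCODE M21 transcripts (GRCm38) on both strands, exact matches first and with at most 1 mismatch after CATG. A tag was kept when its best matches belonged to 1 gene, which held for 54.7% of clean tags in GC-1spg against 57.9% in GC-2spd (ts) on the sense strand. Calls used the two-sided Audic-Claverie test, Benjamini-Hochberg adjusted over all 14450 genes, at an FDR up to 0.001 where the log2 ratio was at least 1 in size. A gene at 0 was set to 0.01 TPM. Folds against 0 are bounds against the 95% Poisson limit, which allows 1 unlisted copy for each tag seen in the other library and is 3 counts where neither library had a tag. Without residual degrees of freedom, edgeR's quasi-likelihood test could not be fitted, and the exact test with an assumed coefficient of variation was an alternative. The calling was run on simulated counts with 200 genes changed 4-fold and counting noise only. It therefore says nothing about variation between cultures. The tools were matplotlib 3.10.9, scipy 1.17.1 and pandas 2.3.3 under Python 3.11.15, and DESeq2 1.42.0 and edgeR 4.0.16 under R 4.3.3.

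The 10 genes, the related lists and the marker lists were chosen with earlier results of these data known. The rule named, per list, the called genes with at least 20 tags, at most 8 by tag total, and the 2 genes with most tags. It named up to 4 markers per list with the most tags. Hapln4, Itgb3, neighbouring genes and genes listed at 0 were named after their values were seen.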

Additional observations from a re-analysis of the deposited data

Results flagged for a closer look

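Tags that matched the opposite strand of the 10 genes were used in no comparison above, and their copies are given here because they exceed what a count of 0 allows. Across all genes, 12.2% of the unambiguous copies in GC-1spg against 10.9% in GC-2spd (ts) were antisense, and each share below is of the same kind.

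Dcn had 144 antisense copies in GC-1spg (16.9% of its copies) and 0 in GC-2spd (ts), and 14 of the 144 were at a CATG that also gave a listed sense tag. Thbs1 had 6 and 153 copies (2.99% and 7.71%), every one of them at such a site, and Thbs2 had 5 and 61 (16.1% and 31.1%). Bgn had 8 and 85 copies (5.48% and 7.30%). Vcan had 14 and 7 copies (28.6% and 14.3%) on low totals. Spp1 had 38 and 58 copies (2.56% and 2.49%). Sparc had 1102 and 648 copies (4.95% and 5.83%), of which 972 and 639 were at sites of a listed sense tag. For Dcn, Bgn, Thbs1, Thbs2, Spp1 and Sparc, the library with more antisense copies was also the one with more sense copies, and for Vcan it was not. What gave rise to these tags was not tested.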

How the results depend on the processing

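No paired analysis was possible because each cell line has 1 library, and for the same reason no replicate could be left out and the quasi-likelihood test was not run. Of the values that answer a comparison, 62 stayed within 1.5 times the main value or the same range under an alternative and 15 did not. With edgeR's exact test and an assumed biological coefficient of variation of 0.2, 511 genes were called higher and 489 lower, and with 0.4, 108 and 136. The assumed variation also lowered the list counts, by its construction. At 0.2 there were 5 calls among matricellular genes, 5 among receptors, 4 among glycosaminoglycan enzymes and 2 among proteases. At 0.4 these were 3, 1, 0 and 0, and small proteoglycans had 2. With TMM or DESeq2 size factors, 2 of the 10 genes passed the fold in the lower direction, since Sparc (-1.09 and -1.08) joined Dcn. Among values of single genes, 98 kept to the main value and 18 moved, and none changed direction. Counting by site in the longest transcript gave Dcn and Bgn a leading tag share of 0 in GC-1spg, because that transcript lacks the site. Depth limits Lum, Vcan and the Dcn value of GC-2spd (ts), which rests on 2 copies and leaves out 48 shared ones.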
